A study of Mus musculus with 516 samples.

Results

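Th-high cells were single naive cells from dorsal root ganglia of mice, which house the cell bodies of the body's sensory neurons, with tyrosine hydroxylase (Th) at 300 CPM or more, CPM being the cell's reads of the gene scaled to 1000000 reads. They numbered 58 of 306 naive cells, in a series of 516 cells. The naive cells came from 2 mouse strains, the laboratory strain C57BL/6 and the wild-derived strain CAST/Ei, and were captured right after dissociation with no treatment. Of the naive C57BL/6 cells 27 were Th-high (20.5%, exact 95% interval 13.9 to 28.3), and of the CAST/Ei ones 31 (17.8%, 12.4 to 24.3). The other 210 cells of the series had been plated for 48 h as an in vitro model of axotomy. Of these, 0 C57BL/6 cells reached the threshold, which allows a share of up to 2.70%, and 1 of 99 CAST/Ei cells (1.01%) did. They were used for nothing else. Cells had been passed over a density gradient, filtered and captured on a microfluidic chip made for large cells, so shares are shares of captured cells. The labels name no age, sex or animal.

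Low-threshold C fibres are thin unmyelinated sensory neurons that innervate hair follicles and respond to light stroking of hairy skin. In the dorsal root ganglion they carry Th, the rate-limiting enzyme of catecholamine synthesis, together with the vesicular glutamate transporter VGLUT3 (gene Slc17a8) and the secreted protein TAFA4 (gene Fam19a4). They depend on the mechanically gated channel Piezo2, and like other small sensory neurons of the non-peptidergic lineage they express the neurotrophic receptor Ret.

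Each strain was treated as 1 sample, because no label ties cells to animals, dissections or capture runs. No difference was therefore tested, and no p-value or standard error is given. Reads were summed over the cells of a class, and the class level is the CPM of that sum with an exact Poisson 95% interval. These intervals, and those of shares, cover at most counting error, and leave out the spread between animals and preparations. Amplified copies of 1 molecule count as separate reads, so the intervals of levels are too narrow even for counting error. A gene was called higher or lower where the ratio of CPM + 1 was at least 2-fold. The comparators were the 248 other naive cells, taken per strain, and within them the Mrgprd-high cells (24 and 42 cells with Mrgprd at 300 CPM or more), which mark non-peptidergic nociceptors, and the Tac1-high cells (34 and 30 of the remaining cells with Tac1 at 300 CPM or more), which mark peptidergic ones. Th-high cells held a median of 680299 reads (13932 to 2219216) in C57BL/6 and 1184697 (165918 to 2897867) in CAST/Ei, against medians of 703966 and 878064 in the other naive cells. The median number of genes with a read was 8611 and 8643, against 8298 and 8537. Strain and preparation cannot be told apart anywhere in this comparison.

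The promoters shown are those of Th, which defined the cells, of the markers Fam19a4 and P2ry1, and of Rgs5, the gene of the lowest CAST/Ei to C57BL/6 ratio among the named genes. Each is the 250 bases before the RefSeq start of the gene on build GRCm38.p6, written 5′ to 3′ along the gene. Th lies at chr7:142899996-142900245 on the minus strand, Fam19a4 (RefSeq symbol Tafa4) at chr6:97060412-97060661 on the minus strand, P2ry1 at chr3:61002535-61002784 on the plus strand and Rgs5 at chr1:169655251-169655500 on the plus strand. Capitals mark a cyclic AMP response element.
Th: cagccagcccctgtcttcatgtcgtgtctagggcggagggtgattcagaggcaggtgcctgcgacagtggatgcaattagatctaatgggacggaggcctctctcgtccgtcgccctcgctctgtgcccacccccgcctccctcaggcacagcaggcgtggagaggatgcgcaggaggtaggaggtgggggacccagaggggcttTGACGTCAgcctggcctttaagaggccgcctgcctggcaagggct
Fam19a4: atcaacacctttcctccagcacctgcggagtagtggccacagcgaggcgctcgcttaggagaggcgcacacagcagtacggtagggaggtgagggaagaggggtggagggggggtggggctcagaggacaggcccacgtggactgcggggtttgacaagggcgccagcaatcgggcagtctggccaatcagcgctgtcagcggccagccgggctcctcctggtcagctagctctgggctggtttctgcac
P2ry1: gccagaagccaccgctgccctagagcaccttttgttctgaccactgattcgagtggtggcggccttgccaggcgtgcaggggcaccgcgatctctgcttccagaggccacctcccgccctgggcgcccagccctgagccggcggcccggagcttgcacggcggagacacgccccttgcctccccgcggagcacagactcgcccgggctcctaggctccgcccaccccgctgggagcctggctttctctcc
Rgs5: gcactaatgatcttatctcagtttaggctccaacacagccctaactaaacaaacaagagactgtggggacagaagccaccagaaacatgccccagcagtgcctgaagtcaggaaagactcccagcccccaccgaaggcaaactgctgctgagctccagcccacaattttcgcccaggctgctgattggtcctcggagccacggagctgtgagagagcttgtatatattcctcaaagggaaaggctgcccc
The element, with the letters TGACGTCA, was searched on both strands and occurred once in the Th window, its first base at position -45 from the start. It was found in 508 of 32851 mouse promoter windows of this length (1.546%). The binding letters of RUNX factors, TGTGGT or TGCGGT on either strand, were found in 6107 windows (18.59%). They were in none of the 20 windows that matched 16 of 20 genes looked up, which says only that these letters are absent from those windows. The searched motifs do not overlap one another in the windows shown.

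Th ranged from 342 to 7726 CPM over the 27 C57BL/6 Th-high cells, with a median of 2874 CPM. In the 31 CAST/Ei Th-high cells it ranged from 347 to 8036 CPM, with a median of 2368. The summed level of Th was 3098 and 2553 CPM, against 8.75 and 30.2 CPM in the other naive cells. These values chose the cells and support nothing further. Just inside the threshold lay cells of 342, 513 and 670 CPM in C57BL/6 and 347, 664 and 765 CPM in CAST/Ei. Just outside lay cells of 201, 167.98 and 163.7 CPM in C57BL/6 and 279, 271 and 227 CPM in CAST/Ei. The number of naive cells outside without a Th read was 73 in C57BL/6 and 33 in CAST/Ei. With every cell thinned to 200000 reads, Th had 5 reads or more in 10.2% of the other C57BL/6 cells and 30.1% of the other CAST/Ei cells (unthinned 17.1% and 53.1%). In Mrgprd-high cells, of 536282 and 828329.5 median reads, the thinned shares were 0% (0 of 22 cells, which allows a share of up to 13.6%) and 34.2% (13 of 38 cells).

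**Figure D1:**
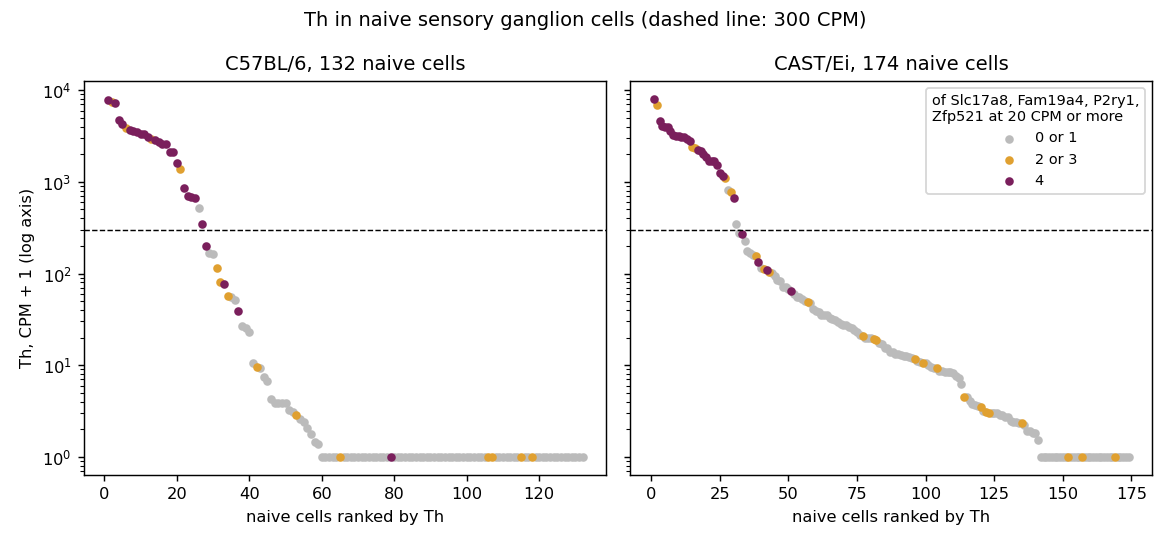
Naive cells of each strain ranked by Th (x axis), with Th as CPM + 1 on a log axis (y axis). Colour gives how many of Slc17a8, Fam19a4, P2ry1 and Zfp521 reached 20 CPM in the cell, and the dashed line is the threshold of 300 CPM. Cells with all 4 markers make up 46 of the 58 points above the line and 8 of the 248 below it.

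The cells chosen by Th also carried the other markers of low-threshold C fibres. Of the 58 Th-high cells, 46 had all 4 of Slc17a8, Fam19a4, P2ry1 and Zfp521 at 20 CPM or more, 54 had at least 3, and 55 at least 2. Among the 248 other naive cells, 4 in either strain had all 4. The C57BL/6 cell just under the threshold, with 201 CPM of Th, was one of them, with 1161 CPM of Fam19a4 and 389 CPM of P2ry1. When each cell was matched to its 5 nearest cells of the same strain over 1000 variable genes that did not include Th, 91.1% of the neighbours of C57BL/6 Th-high cells were Th-high, and 87.7% in CAST/Ei. For the other naive cells the shares were 5.52% and 2.80%.

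A few Th-high cells went against the label. One C57BL/6 cell with 513 CPM of Th had none of the 4 markers at 20 CPM, and instead 14290 CPM of Calca and 8383 CPM of Tac1, the genes of the peptides CGRP and substance P, and 13157 CPM summed over fibroblast markers. One CAST/Ei cell with 821 CPM of Th had 1 marker and 17174 CPM of Calca. Another, with 347 CPM of Th, had no marker, 443 CPM of Mrgprd and 4913 CPM summed over endothelial markers. A CAST/Ei cell with 1113 CPM of Th had 2 markers and 863 CPM of Mrgpra3, a receptor of itch neurons. Of these 4 cells, all but the one with 1 marker had 0 Th-high neighbours. Tac1 reached 300 CPM in 12 C57BL/6 and 7 CAST/Ei Th-high cells, and Mrgprd in 0 and 1. Calca reached 1000 CPM in 3 C57BL/6 and 8 CAST/Ei Th-high cells, and some of these passed the marker check. A CAST/Ei cell with 765 CPM of Th had 3 markers, 92.1 CPM of Fam19a4 and 8407 CPM of Calca. Cells with all 4 markers included a CAST/Ei one with 3821 CPM of Calca and a C57BL/6 one with 2333 CPM. Without the 3 cells of fewer than 2 markers, the shares of Th-high cells were 19.7% and 16.7%.

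Slc17a8 ranged from 0 to 165.6 CPM in C57BL/6 Th-high cells (median 62.5) and from 0 to 487 CPM in CAST/Ei ones (median 64.97), and 2 and 3 cells had no read. The median over the other naive cells was 0 CPM in either strain, although the highest of them reached 193 and 115.3 CPM. The summed level of Slc17a8 was 62.02 CPM (58.8 to 65.4) against 4.95 CPM in C57BL/6, a log2 ratio of 3.40, and 132.1 CPM (128.6 to 135.7) against 4.45 CPM in CAST/Ei, a log2 ratio of 4.61. Thinned to equal depth, 80.8% and 80% of Th-high cells had 5 Slc17a8 reads or more, against 4.55% and 5.26% of Mrgprd-high cells (unthinned 88.9% and 83.9% against 8.33% and 9.52%). The gene of VGLUT3 thus lay with the Th-high cells in either strain, with overlapping ranges. Slc17a6, the gene of the more widely used transporter VGLUT2, was under 2-fold apart, with a log2 ratio of 0.69 in either strain.

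Fam19a4 had medians of 1201 CPM in C57BL/6 (0 to 2054) and 852 CPM in CAST/Ei (0 to 1560), with no read in 1 and 2 Th-high cells. Its summed level was 1308 against 64.97 CPM and 909 against 46.4 CPM, log2 ratios of 4.31 and 4.26. Some other naive cells overlapped that range, the highest at 1402 and 1036 CPM. Fam19a4 was also found in 54.5% and 65.8% of thinned Mrgprd-high cells, at summed levels of 51.6 and 96.1 CPM, so low levels of it were common there. Of the other 3 TAFA genes in the table, none was higher in both strains: Fam19a1 and Fam19a2 had log2 ratios of -3.54 and -3.09 in C57BL/6, whereas CAST/Ei gave 0.74 and 1.32, and Fam19a5 had -1.76 and -0.82.

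P2ry1, a receptor for ADP, had medians of 343 CPM in C57BL/6 (5.13 to 730) and 640 CPM in CAST/Ei (0 to 1423). Its log2 ratio to the other naive cells was 3.32 (354 against 34.5 CPM) and 4.82 (651 against 22.1 CPM). Zfp521, a zinc finger transcription factor, had medians of 142.9 CPM (12.8 to 460) and 336 CPM (0 to 1071), with log2 ratios of 2.92 (180 against 22.9 CPM) and 4.07 (394 against 22.5 CPM). The Th-high cells of both strains were thus high in both genes, and the summed level was higher in CAST/Ei than in C57BL/6 Th-high cells for Zfp521 (log2 ratio 1.12) and under 2-fold apart for P2ry1 (0.88). In the other naive cells that strain ratio was -0.02 for Zfp521 and -0.62 for P2ry1.

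**Figure D2:**
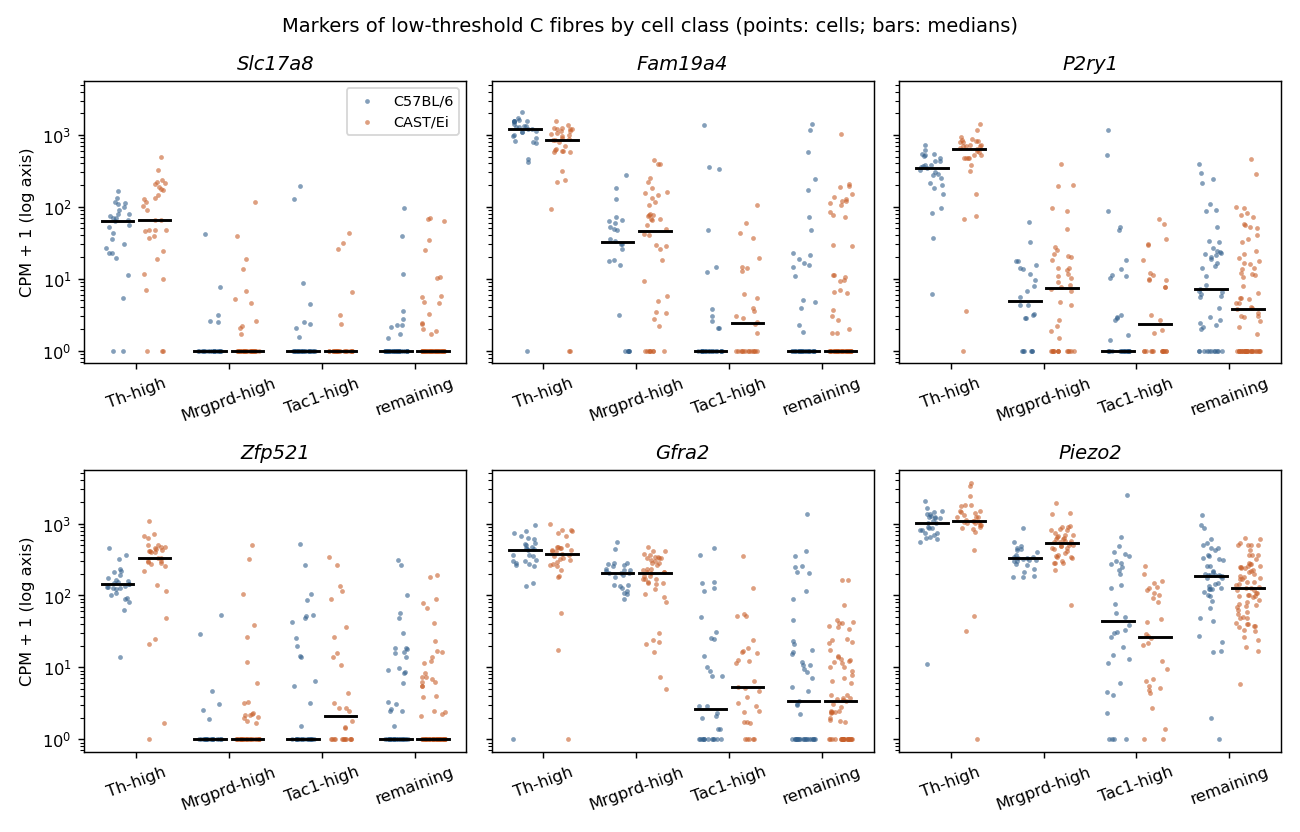
Slc17a8, Fam19a4, P2ry1, Zfp521, Gfra2 and Piezo2 in single naive cells as CPM + 1 on a log axis (y axis), by class (x axis) and strain (colour); points are cells and bars are medians. The Th-high medians of Fam19a4 lie at 1201 CPM in C57BL/6 and 852 CPM in CAST/Ei, and Gfra2 and Piezo2 are also seen in the Mrgprd-high cells.

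Of 12 listed genes of low-threshold C fibres besides Th, 11 were in the table, and 9 were at least 2-fold higher in Th-high cells of both strains, with median log2 ratios of 2.58 and 2.90. Phf24 was not analysed here. Over all 11251 genes, 3.16% were higher in both strains (355 genes) and 9.46% lower (1064 genes), and the median log2 ratio was -0.12 in C57BL/6 and -0.02 in CAST/Ei. The list was chosen with the identity of these cells known, so its direction is a check of the label. Without the 3 cells of fewer than 2 markers the count was again 9, and 374 and 1221 genes were higher and lower in both strains.

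Gfra2, the co-receptor through which Ret binds neurturin, had medians of 425 CPM (0 to 964) and 378 CPM (0 to 980) and log2 ratios of 2.37 and 2.53. Mrgprd-high cells held it too, at 211 and 214 CPM against 452 and 416 CPM in Th-high cells. Ret itself was called in 1 strain, with log2 ratios of 1.24 in C57BL/6 and 0.88 in CAST/Ei. The transcription factor Runx1 was called in neither, at 0.54 and 0.81, and was highest in the Mrgprd-high cells of C57BL/6, at 711 CPM against 492 CPM.

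Piezo2 had medians of 1012 CPM (10.3 to 2081.5) and 1093 CPM (0 to 3720), and summed levels of 1082 against 229 CPM and 1351 against 273 CPM, log2 ratios of 2.24 and 2.30. Among 19 genes of mechanical, thermal and chemical transduction in the table it was the single one higher in both strains. Lower in both were Trpa1, Trpv1, Trpm3, Trpc6, Asic3 and Stom, 6 in all, where 9.46% of all genes were. The heat and capsaicin channel Trpv1 had 4.47 against 60.5 CPM in C57BL/6 and 23.9 against 63.9 CPM in CAST/Ei, where the highest Th-high cell held 1275 CPM and 23 of 31 cells had no read. With each cell weighted equally, its CAST/Ei log2 ratio was 0.04. Median log2 ratios over these 19 genes were -1.57 and -0.61.

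The voltage-gated channels were divided among themselves. Kcnd3, the A-type channel Kv4.3, had the highest ratios of the 5 potassium channel genes higher in both strains, with medians of 293 CPM (2.56 to 700) and 321 CPM (0 to 829) and log2 ratios of 2.50 and 2.90. Dpp6, an auxiliary subunit of Kv4 channels, had log2 ratios of 1.17 and 1.65, with 414 and 778 CPM in Th-high cells. Also higher in both strains were Kcna4 (1.55 and 1.96), Kcnc2 (1.20 and 1.10) and Kcnh6 (1.49 and 2.20). Of 40 potassium and HCN channel genes in the table these 5 were higher and 7 lower in both strains, where 3.16% and 9.46% of all genes were, among them Kcnk18 (-4.26 and -1.36) and Kcns3 (-1.57 and -2.80), with medians over the list of 0.45 and 0.15.

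Of 12 sodium channel genes, Scn1a, Scn3a and Scn7a were higher in both strains (3.16% of all genes) and Scn11a lower (9.46% of all genes, so 1 of 12 is near the background). Scn1a (Nav1.1) had 160.7 against 61.996 CPM in C57BL/6 and 181 against 6.45 CPM in CAST/Ei, so its level in Th-high cells was nearly equal between strains while that in the other cells was not. Scn7a, a sodium-sensing member of the family, had 1460 against 637 CPM and 1278 against 429 CPM. The nociceptor channel Scn11a (Nav1.9) had log2 ratios of -1.10 and -1.02, and its relative Scn10a (Nav1.8) was under 2-fold apart at -0.66 and -0.63. Of 10 calcium channel genes Cacna1h alone was higher in both strains, and Cacna1c and Cacna1e were lower. Cacna1h, the T-type channel Cav3.2, had a median of 40.6 CPM in C57BL/6 (0 to 206) and 19.4 CPM in CAST/Ei (0 to 225), with log2 ratios of 2.58 and 2.82, and 0.323 to 1.45 CPM in the Mrgprd-high cells of the strains.

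Most listed genes of other small sensory neuron classes were lower in Th-high cells. Of 13 peptidergic genes 11 were lower in both strains, of 13 itch genes 12, and of 12 genes of the Mrgprd class 7, with none higher, where 9.46% of all genes were lower in both. Median log2 ratios were -2.42 and -2.59 for the peptidergic genes and -4.44 and -3.32 for the itch genes (-4.42 in C57BL/6 with Cysltr2, which had 0 reads there, set at 3 reads). For the Mrgprd class they were -2.25 and -1.44. Calca had a median of 45.6 CPM in C57BL/6 Th-high cells (11.9 to 14290) and 236 CPM in CAST/Ei ones (5.76 to 17174), against medians of 997 and 3258 CPM in the other cells. Without the 3 cells of fewer than 2 markers the counts were 11, 12 and 6. With each cell weighted equally 6 peptidergic genes were lower in both strains, and 7 at a Th threshold of 100 CPM. Calcb, the gene of the beta form of CGRP, was lower in CAST/Ei alone, at 979 against 1019 CPM in C57BL/6 and 260.0 against 1165 CPM in CAST/Ei. Tac1, which chose the peptidergic comparator, was not found in fewer Th-high cells. Thinned, it had 5 reads or more in 96.2% and 80% of them, against 77.6% and 72.2% of the other cells. Of the Mrgprd class, 5 genes were not lower in both, among them the phosphatase gene Acpp, at 866 against 468 CPM and 834 against 607 CPM. Mrgprd had 2.92 against 137.4 CPM and 22.1 against 303 CPM. Osmr, a receptor subunit of itch neurons, had 13.7 against 192 CPM and 22.5 against 202 CPM. The co-receptors Gfra1 and Gfra3 were lower as well, with log2 ratios of -4.71 and -4.32 for Gfra1 and of -3.69 and -2.12 for Gfra3.

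The Mrgprd-high cells, which like low-threshold C fibres belong to the Runx1-dependent lineage, gave a closer comparison. Of all genes, 860 (7.64%) were at least 2-fold higher in Th-high than in Mrgprd-high cells of both strains and 425 (3.78%) lower. Of the 11 genes of low-threshold C fibres 8 were higher, all of those higher against the other cells but Gfra2. Of 12 sodium channel genes 6 were higher, among them Scn8a (log2 ratios of 2.16 and 2.25) and Scn3b (2.65 and 1.21) besides Scn1a, Scn3a and Scn7a, and 2 were lower, Scn10a (-1.34 and -1.18) and Scn11a (-1.68 and -1.50). The acid-sensing channel Asic1 was higher with Piezo2 (3.91 and 4.44), while Trpa1, Trpm3 and Trpc6 were lower, Trpc6 by log2 ratios of -6.59 and -4.38. Ret and Runx1 were called in neither strain against these cells, at 0.49 and 0.42 for Ret and -0.53 and -0.02 for Runx1. Of 14 endothelial and mural markers, 10 were higher in Th-high than in Mrgprd-high cells of both strains, and their part in these counts was not tested.

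Genes of large myelinated neurons were mixed, with 3 of 13 higher in both strains (Ntrk3, Necab2 and Scn1a) and 4 lower (Nefm, Ldhb, Cntnap2 and Etv1), where 3.16% and 9.46% of all genes were. Ntrk3, the receptor of neurotrophin-3, had 105.6 against 27.5 CPM and 40.2 against 12.7 CPM. Of 16 pan-neuronal genes 3 were higher in both strains (Pou4f1, Syt1 and Syp) and none was lower. Of the receptors for growth factors and cytokines, 2 of 18 were higher (Gfra2 and Ntrk3) and 6 lower, Tgfbr2 and Il6st among them.

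Of 28 transcription factors of sensory neurons in the table, 5 were higher in both strains and 8 lower, where 3.16% and 9.46% of all genes were. The POU factor Pou4f1 had medians of 2307 CPM (554 to 4431) and 2288 CPM (202 to 4392), with log2 ratios of 1.67 and 1.19. Its relative Pou4f2 stood further apart, with 110.6 against 10.7 CPM and 124.8 against 11.8 CPM, log2 ratios of 3.25 and 3.30. Casz1 (1.64 and 1.45), Prrxl1 (1.95 and 1.14) and Zfp521 made up the rest. Etv1, Bcl11b, Meis2, Maf, Zeb2, Foxp2, Bhlhe41 and Nr4a2 were lower in both.

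The other genes of catecholamine synthesis and handling mostly lacked the pattern of Th. Of 9 in the table, Pcbd1 alone was higher in both strains, with log2 ratios of 1.57 and 2.59. Another 2 were lower in both, where 3.16% of all genes were higher and 9.46% lower. Pcbd1 was found in 100% of thinned Th-high cells and 95.5% of thinned Mrgprd-high cells in C57BL/6. In CAST/Ei these shares were 70% and 2.63%. Gch1, which makes the biopterin cofactor that Th needs, was lower, at 0.913 CPM (0.557 to 1.41) against 4.34 CPM and 0.939 CPM (0.665 to 1.29) against 7.35 CPM, and 23 of 27 and 24 of 31 Th-high cells had no read. Nr4a2, a transcription factor of dopamine neurons, was lower too, with log2 ratios of -2.01 and -1.34. The vesicular monoamine transporter Slc18a2 had 109.2 and 95.5 CPM in Th-high cells, and log2 ratios of 1.10 and 0.18. The other 13 listed genes, among them Ddc, Dbh and Slc6a3, were not analysed here.

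Of 33 G protein-coupled receptors in the table, 19 were lower in both strains, where 9.46% of all genes were, and 4 higher, where 3.16% were: P2ry1, Htr1d, Cckar and Gpr35. Cckar, a cholecystokinin receptor, had a median of 158.6 CPM in C57BL/6 Th-high cells (25.6 to 480) and 78.6 CPM in CAST/Ei ones (0 to 225), and its level in the other cells was 9.13 and 1.34 CPM. Htr1d, a serotonin receptor, had medians of 154.9 CPM (0 to 379) and 382 CPM (0 to 916), with log2 ratios of 2.94 and 6.83. Among those lower in both were the opioid receptor Oprm1 (-3.35 and -2.09) and the neuropeptide Y receptor Npy2r (-5.19 and -4.30). Genes of vesicle release were divided, with 6 of 32 higher in both strains, Sv2a (1.97 and 2.47) and Rims1 (2.40 and 1.15) among them, and 6 lower, such as the peptide-processing and granule genes Pcsk1, Pcsk2 and Scg2 (-4.39 and -2.64).

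Across all genes, the 14 with the highest ratios that also passed floors of level and detection in both strains were Slc51a, Fam19a4, Cckar, Depdc7, Gm7271, Adamts3, Dgkk, Myo1a, Fbp2, Slc17a8, Tmem72, Hcrtr2, Cdh10 and P2ry1. Slc51a, a subunit of a bile acid and steroid transporter, had 92.8 against 1.22 CPM in C57BL/6 and 105.1 against 3.83 CPM in CAST/Ei, log2 ratios of 5.40 and 4.46. Adamts3, a protease that processes procollagen, had 812 against 59.3 CPM and 348 against 6.83 CPM. Hcrtr2, an orexin receptor, had 90.5 against 8.74 CPM and 57.4 against 0.791 CPM. Myo1a, an unconventional myosin, had medians of 76.3 CPM (0 to 353) and 72.5 CPM (0 to 620), and Th-high cells without a read numbered 2 and 3. The 14 genes at the other end were Cd82, Ly86, Nt5e, Cyp2j12, Gna14, Unc13c, Tmem233, Serping1, Tspan12, Ift122, Dgki, Cadm2, Etv1 and Dgkg. Nt5e, the ectonucleotidase CD73 that makes adenosine, had 7.71 against 95.7 CPM and 3.39 against 132.96 CPM. Serping1, the C1 inhibitor, had log2 ratios of -3.72 and -2.99, and of -0.68 in CAST/Ei at a Th threshold of 100 CPM, which ends the call there. Diacylglycerol kinases appeared at both ends, with Dgkk at log2 ratios of 3.47 and 5.11 and Dgki at -2.93 and -4.27.

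**Figure D3:**
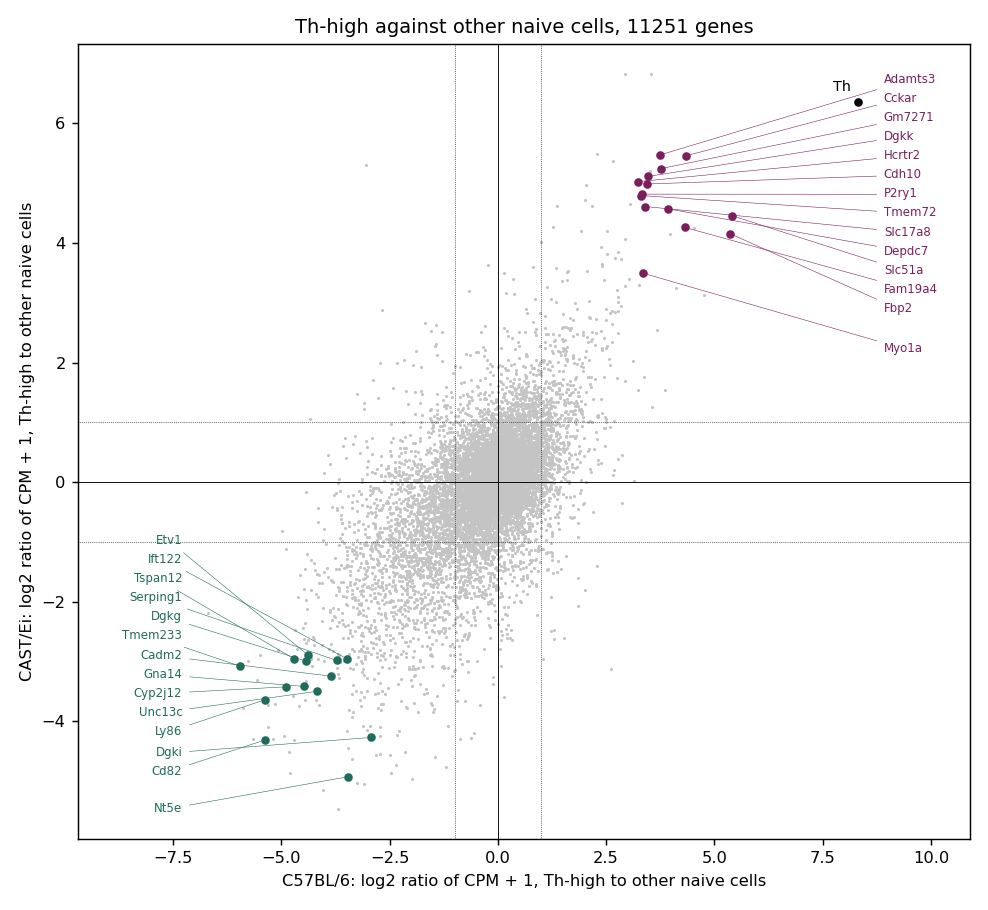
Log2 ratio of CPM + 1 in Th-high to other naive cells in C57BL/6 (x axis) and CAST/Ei (y axis), 1 point for each of 11251 genes, with the named genes coloured and dotted lines at 2-fold. Of all genes, 3.16% lie past 2-fold in the upper right and 9.46% in the lower left; Th, which chose the cells, is black.

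Over all naive cells of a strain, genes whose CPM ranked most like that of Th included Dgkk, Slc51a, Zfp521, Slc17a8, Hcrtr2, Osbpl6, Cdh9, Atp2b2 and Adamts3. Spearman coefficients with Th were 0.69 and 0.61 for Dgkk, 0.71 and 0.59 for Slc51a, and 0.54 and 0.54 for Atp2b2, in C57BL/6 and CAST/Ei. They were taken over all naive cells of the strain, 306 cells in both together. The cells differ in depth, and the labels do not say which shared an animal or a run, so these are descriptions. Within the Th-high cells alone, Gfra2 ranked with Th, with coefficients of 0.54 in C57BL/6 (27 cells) and 0.54 in CAST/Ei (31 cells). Piezo2 had coefficients of 0.44 and 0.25, Fam19a4 of -0.18 and 0.38, P2ry1 of -0.50 and -0.14, Slc17a8 of -0.10 and 0.14, and Zfp521 of 0.01 and 0.06.

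Per strain, 794 genes (7.06%) were higher and 2285 (20.3%) lower in Th-high cells in C57BL/6, and 912 (8.11%) higher and 1616 (14.4%) lower in CAST/Ei. The other naive cells hold every other captured class. Nearly all read as neurons, since the synaptic gene Snap25 reached 100 CPM in all but 1 of the 248, and markers of non-neuronal cells were found beside it. Fibroblast markers were lower in both strains for 8 of 9 genes, endothelial and mural markers for 7 of 14 and glial markers for 6 of 14. Of all genes 9.46% were. Summed per cell, the endothelial and mural genes had medians of 3230 and 54.9 CPM in Th-high cells, against 53.99 and 74.5 CPM in the others. Without Rgs5 these were 42.3 and 39.1 CPM against 22.4 and 47.6 CPM, so the C57BL/6 median was not lower in Th-high cells. The summed level per cell over the 9 fibroblast markers had medians of 25.2 CPM (0 to 13157) in C57BL/6 and 28.6 CPM (0.637 to 5650) in CAST/Ei Th-high cells, against 33.97 and 76.2 CPM in the others. Over the glial list the sums ran the other way, with medians of 5685 and 4181 CPM against 1820 and 2078 CPM, and Pmp22 held most of them. Pmp22, a myelin protein gene, had medians of 4644 CPM (20.5 to 8191) and 3303 CPM (254 to 7062) in Th-high cells and log2 ratios of 2.18 and 1.01. Without Pmp22 and Mbp, a choice made after seeing the values, the glial medians were 366 and 269 CPM, against 426 and 201 CPM. The part of glial RNA in these results was not tested. Leaving out the 25% of cells highest in glial markers gave 427 genes higher and 985 lower in both strains.

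Immediate early and stress genes were lower in both strains for 3 of 14 (Fos, Jun and Ier2), and class I and interferon genes for 6 of 15. Of all genes 9.46% were. In C57BL/6 12 and 14 of them were lower, where 20.3% of all genes were. In CAST/Ei 3 and 6 were, against 14.4% of all genes, so 3 of 14 is not far from the background. The C57BL/6 medians were -1.84 and -1.99, and those of CAST/Ei -0.70 and -0.72. Whether these strain differences exceed the spread between animals was not tested.

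Inside the Th-high cells the strains differed at many genes. Of 11251 genes, 1731 (15.4%) were at least 2-fold higher in CAST/Ei and 977 (8.68%) in C57BL/6, with a median log2 ratio of 0.14 over all genes. Calls higher in CAST/Ei were 63.9% of the total, and 53.2% with median-of-ratios scaling, which set that median at 0. Without the 3 cells of fewer than 2 markers the counts were 1664 and 1067. In the other naive cells the same comparison gave 815 (7.24%) and 1118 (9.94%). The log2 ratio of CAST/Ei to C57BL/6 in Th-high cells was 0.32 for Piezo2, -0.12 for Gfra2, 0.02 for Kcnd3 and 0.02 for Pou4f1. Listed genes of other neuron classes were among those higher in CAST/Ei Th-high cells, 9 of 13 itch genes (median 1.75, and 0.54 in the other cells), 6 of 12 Mrgprd-class genes (1.01 and 0.62) and 12 of 19 transduction genes (1.35 and 0.33). Most itch genes reached 20 CPM in few of the 31 CAST/Ei Th-high cells, such as 2 for Mrgprb4 and 1 for Cysltr2. Mrgprb5 did so in 14 and Jak1 in 30. The CAST/Ei cell high in Mrgpra3 stayed in these sums. The part of RNA or cells of other classes in the strain differences was not tested.

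Penk, which encodes the opioid peptide precursor proenkephalin, had the highest ratio of the named genes. In C57BL/6 Th-high cells it ran from 0 to 17.4 CPM with a median of 0, and 23 of 27 cells had no read. In CAST/Ei Th-high cells it ran from 0 to 1848 CPM with a median of 502 CPM. There 27 of 31 cells lay above every C57BL/6 cell, and those 27 were the ones with 20 CPM or more. Genes given such counts, here and below for Rgs5, Fzd1, P2rx3 and Kcnab1, were picked for their strain ratio or its difference between classes. Some separation therefore follows from the choice, and the cells are not replicates of a strain. The share of all genes so separated was not taken. Others named by the same rule were as far apart, with 29 CAST/Ei cells for Gm15446 and 28 for Serpina3h, and 27 C57BL/6 cells for Ccdc6 and Inpp4a. The summed level of Penk was 0.913 CPM (0.557 to 1.41) against 709 CPM (701 to 717), a log2 ratio of 8.54. In the other naive cells the summed levels of Penk were 14.9 and 16.9 CPM, but they rested on few cells. In C57BL/6 2 of those cells reached 20 CPM, a Mrgprd-high cell at 903 CPM and a Tac1-high cell at 168.3 CPM, and in CAST/Ei 16 did, the highest at 1130 CPM. Penk was higher in Th-high than in other cells in CAST/Ei, with a log2 ratio of 5.31, and of 6.59 without the 2 other cells highest in it. In C57BL/6 the ratio was -3.06, and 0.87 without its 2 highest other cells, at levels of 0.913 and 0.0457 CPM, so the lower call there rested on those 2 cells.

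Rgs5, a regulator of G protein signalling that also marks pericytes, had the opposite order. In C57BL/6 Th-high cells it ran from 0 to 11771 CPM with a median of 3197 CPM, and 26 of 27 cells had 100 CPM or more. In CAST/Ei Th-high cells the median was 6.45 CPM (0 to 1062), and 2 of 31 cells had 100 CPM or more. The groups overlapped in few cells, since 25 C57BL/6 cells lay above every CAST/Ei cell. Rgs5 too was picked for its strain ratio, and the share of all genes so separated was not taken. The summed level was 3758 CPM (3732 to 3784) against 32.02 CPM (30.3 to 33.8), a log2 ratio of -6.83, and -1.09 in the other naive cells. Against the other cells of its strain Rgs5 had log2 ratios of 2.62 in C57BL/6 and -3.13 in CAST/Ei. Without the 2 other cells highest in it, at 18520 and 8653 CPM in CAST/Ei, these were 3.19 and -0.87, so the CAST/Ei call was lost. Rgs5 held most of the endothelial and mural list in C57BL/6 Th-high cells, whose sums per cell had a median of 3230 CPM with it and 42.3 CPM without it (CAST/Ei 54.9 and 39.1 CPM). The pericyte genes Pdgfrb and Acta2 were at 0.958 and 0.411 CPM in those C57BL/6 cells. Over the 13 other endothelial and mural genes 1 Th-high cell in either strain exceeded 1000 CPM. Rgs5 was also high in some other naive C57BL/6 cells. There 26 cells had 100 CPM or more of it, and the highest, at 17251 CPM, exceeded every Th-high cell. The other C57BL/6 cells that were neither Mrgprd-high nor Tac1-high had a summed level of 1201 CPM. The part of pericyte RNA in the level of Rgs5 was not tested.

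Other genes higher in CAST/Ei Th-high cells were Gad1, Tspan10, Gm15446, Serpina3h, Tas1r1, Fzd1, Parp3, P2rx3 and Apold1. Some were as unequal in the other naive cells. Gad1, an enzyme of GABA synthesis, had 0.730 against 96.7 CPM in Th-high and 0.447 against 78.7 CPM in the other cells, and Tspan10 had no read in any naive C57BL/6 class sum and 36.4 CPM in CAST/Ei Th-high cells. Fzd1, a Wnt receptor, had 23.1 CPM in C57BL/6 (0 to 141.01) and 557 CPM in CAST/Ei (0 to 1369), and 26 CAST/Ei cells lay above every C57BL/6 cell. Its ratio was 4.53 in Th-high and 3.05 in the other cells. P2rx3, an ATP-gated channel of nociceptors, had medians of 10.1 CPM (0 to 89.7) and 276 CPM (0 to 755), with 21 CAST/Ei cells above every C57BL/6 cell. Its strain ratio was 4.04 in Th-high cells and 1.07 in the others. Mrgprd-high cells held 216 and 444 CPM of it, so the CAST/Ei Th-high level of 305 CPM lay between those.

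Other genes higher in C57BL/6 Th-high cells were Fam213b, Ppp1r16b, H2-T24, Tmem132c, Ccdc6, 9430076G02Rik, Rassf4, Golga7b and Inpp4a. Fam213b had no read in either CAST/Ei class sum and 44.4 CPM in C57BL/6 Th-high cells. Ccdc6, Golga7b and Inpp4a were likewise unequal in the other cells, with strain ratios of -3.89, -3.68 and -3.62 in Th-high and -3.82, -3.37 and -3.01 in other cells. Tmem132c, a membrane protein gene, had medians of 272 CPM (0 to 1053) in C57BL/6 and 0.844 CPM (0 to 185) in CAST/Ei Th-high cells. It was higher in Th-high than in other cells in both strains, with log2 ratios of 4.12 and 3.25, at a level that differed by a strain ratio of -3.97.

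**Figure D4:**
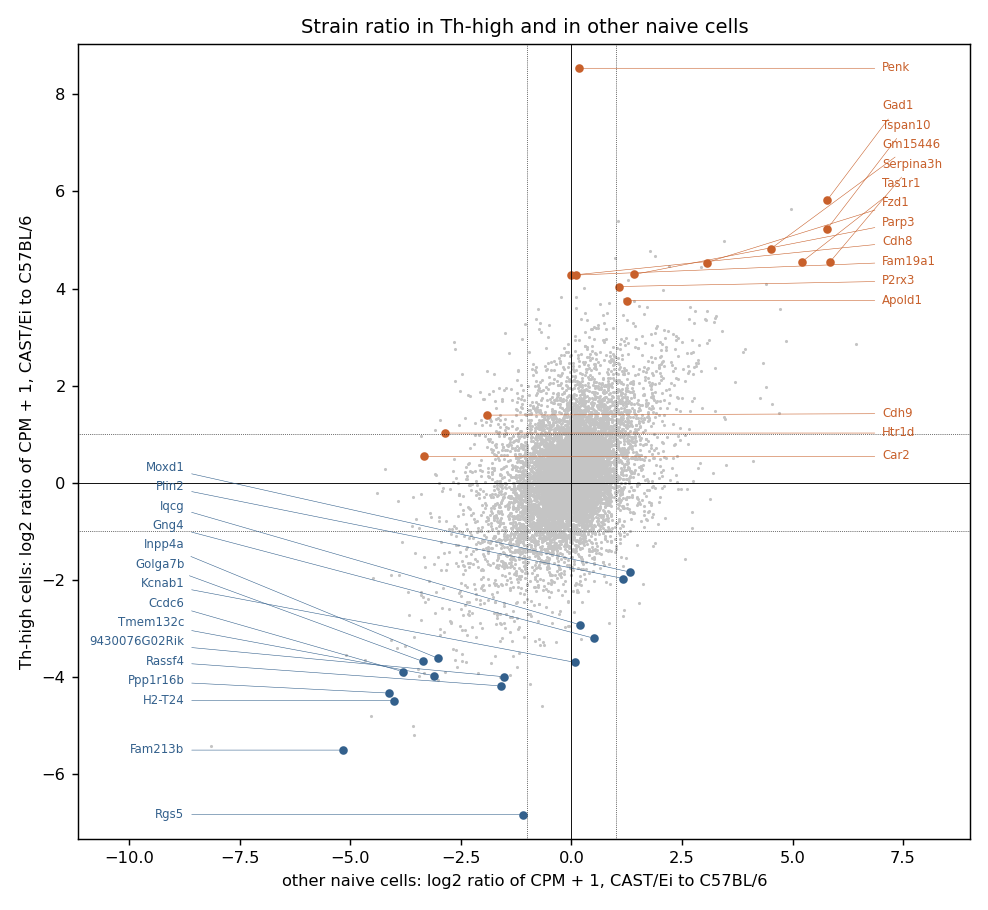
Log2 ratio of CPM + 1 in CAST/Ei to C57BL/6 in the other naive cells (x axis) and in Th-high cells (y axis), 1 point for each of 11251 genes, with dotted lines at 2-fold. Penk (8.54 against 0.17) and Rgs5 (-6.83 against -1.09) lie far from the diagonal, and Gad1 (5.82 against 5.78) lies on it.

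The strain ratio in Th-high cells minus that in the other naive cells was 4-fold or more for 443 genes (3.94%) towards CAST/Ei and 1.39% of genes towards C57BL/6. Towards CAST/Ei the named genes were Penk, Fam19a1, Htr1d, Car2, Cdh8 and Cdh9. For Car2 and Htr1d the difference came largely from the other cells. Under the alternative settings given below, Car2 had strain ratios of 0.21 to 1.06 in Th-high cells and differences of 2.70 to 5.12. For Htr1d these were 0.69 to 1.23 and 2.41 to 4.35. Other naive cells at 20 CPM or more numbered 25 in C57BL/6 and 8 in CAST/Ei for Car2, and 15 and 2 for Htr1d. Fam19a1 had 2.24 against 61.6 CPM in Th-high cells and 36.5 CPM in the other cells of either strain. Cdh8 and Cdh9, cadherins of neuronal contacts, had 2.46 against 66.4 CPM and 157.5 against 415 CPM in Th-high cells. For Cdh9 the other cells went the other way too, with 12.7 against 2.66 CPM.

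Towards C57BL/6 the named genes were Rgs5, Gng4, Kcnab1, Moxd1, Iqcg and Plin2. Kcnab1, a beta subunit of potassium channels, had medians of 151.6 CPM (0 to 495) in C57BL/6 and 1.71 CPM (0 to 180) in CAST/Ei Th-high cells, and 11 C57BL/6 cells lay above every CAST/Ei cell. Its strain ratio was -3.70 in Th-high cells and 0.07 in the others, and the Mrgprd-high cells of the strains held 308 and 304 CPM. Gng4, a G protein gamma subunit, had 87.3 against 8.60 CPM in Th-high cells and 37.01 against 52.9 CPM in the others. Iqcg had 76.6 against 9.22 CPM, with 7.78 and 9.05 CPM in the others. Genes at least 2-fold apart between Th-high and other cells in opposite directions in the strains numbered 92, or 0.818% of all.

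**Figure D5:**
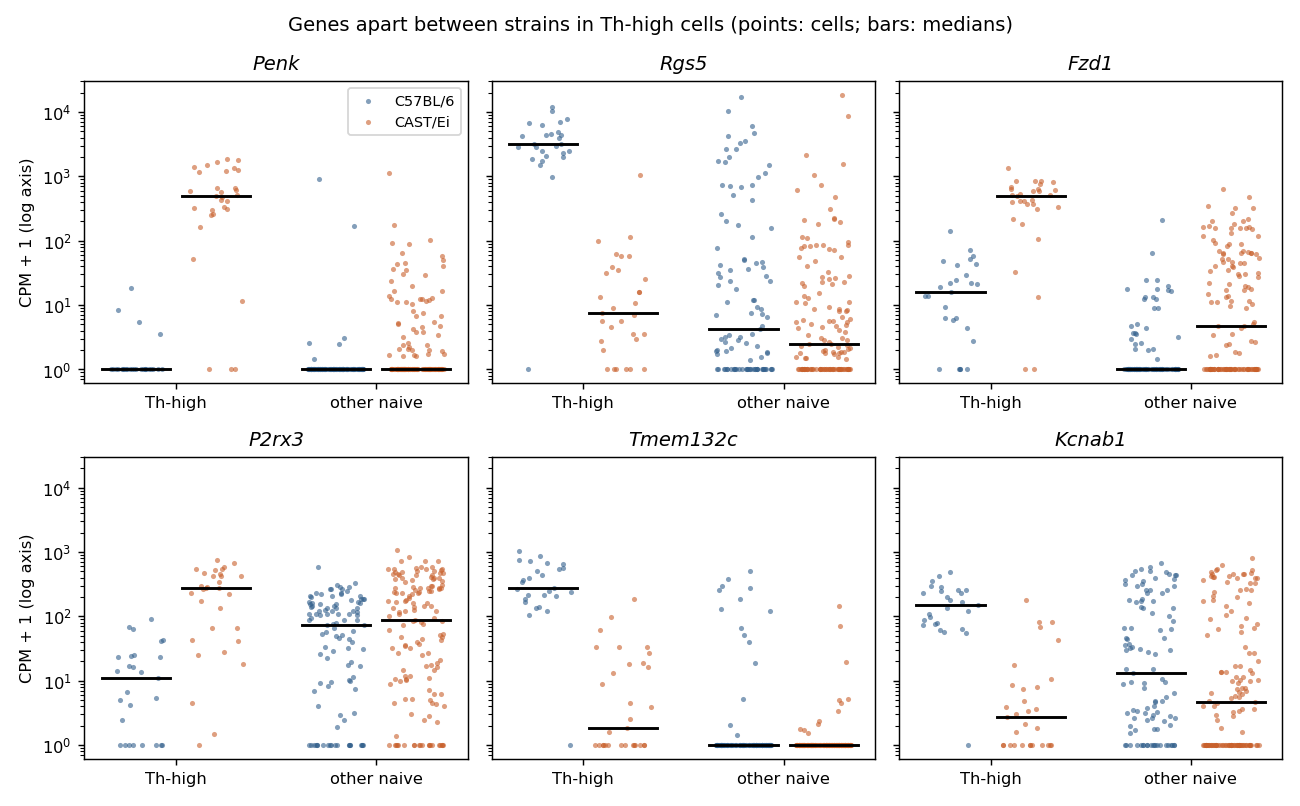
Penk, Rgs5, Fzd1, P2rx3, Tmem132c and Kcnab1 in single naive cells as CPM + 1 on a log axis (y axis), in Th-high and other naive cells (x axis) by strain (colour); points are cells and bars are medians. In Th-high cells the Penk medians are 0 CPM in C57BL/6 and 502 CPM in CAST/Ei, and the Rgs5 medians 3197 and 6.45 CPM.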

How the data were processed

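The deposited table holds raw read counts per gene and cell, whole numbers for 11251 genes and 516 cells, and titles tie each column to a sample. All columns were used, and no 2 are identical. Per the submitters' processing notes, Bowtie2, SAMtools and the build mm10 were used, in roles left unstated. Counter, annotation and filters: not given in the sources used here. Cells of all conditions shared the sequencing runs, per the labels' protocols. In the table every gene has a read in at least 60 cells, and listed genes outside the table were not analysed here. The build mm10 derives from C57BL/6, and any effect of CAST/Ei sequence variants on the counts was not tested.

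Naive cells numbered 132 in C57BL/6 (105 of them not Th-high) and 174 in CAST/Ei (143 not Th-high), and cultured cells 111 and 99. CPM were computed from each cell's total, and class levels from summed reads, with Python 3.11.15, numpy 2.4.6, pandas 2.3.3 and SciPy 1.17.1. Log2 ratios are of CPM + 1, which understates the difference of low genes. Thinning to 200000 reads left out shallower cells, 1 Th-high cell in either strain and 7 and 10 other naive cells. No doublet caller was run, and cells with markers of other types were kept. Cells, lists and rules were chosen with earlier results of these data known. Named genes were ranked by the weakest log2 ratio over both strains and both weightings (summed reads, mean CPM over cells), with floors of 20 CPM and of 5 thinned reads in 50% of cells of the class that is higher; strain genes were ranked likewise. From the fixed lists the text names members called in both strains or with a defining role. On simulated cells drawn around 1 mean per class, the ratio script recovered known 4-fold changes in genes of 20 CPM or more. Such cells lack the mixed classes and the few very high cells of these data, so the 2-fold calls were not tested by it. Of 363 genes looked up, 361 matched by symbol in GENCODE.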

Additional observations from a re-analysis of the deposited data

Results flagged for a closer look

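The 7 genes given here had ratios of Th-high to other naive cells that went past 2-fold in opposite directions in the strains, both from summed reads and with each cell weighted equally. They are those among the named or listed genes, of 47 genes with that pattern under both weightings and 92 from summed reads. The difference between strains was not tested, since each strain is 1 sample. As the log2 ratio in CAST/Ei minus that in C57BL/6, Penk stood at 8.37, Fam19a2 at 4.41, Cdh8 at 4.19 and Parp3 at 2.87. Towards C57BL/6, Rgs5 stood at -5.74, Gng4 at -3.70 and Plin2 at -3.15. Fam19a2 had 7.44 against 70.6 CPM in C57BL/6 and 30.4 against 11.6 CPM in CAST/Ei, where 17 of 31 Th-high cells had no read. Leaving out the 2 other naive cells highest in the gene per strain, chosen after seeing the data, ended the opposite directions for Penk (0.87 in C57BL/6 and 6.59 in CAST/Ei), Rgs5 (3.19 and -0.87) and Parp3 (-0.34 and 1.70), and not for the other 4. Plin2, a coat protein of lipid droplets, had 87.6 against 36.9 CPM in C57BL/6 and 21.6 against 84.4 CPM in CAST/Ei, and at a Th threshold of 100 CPM its difference between strains was -0.89 in place of -3.15.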

How the results depend on the processing

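With a pseudocount of 10 CPM, genes higher and lower in Th-high cells numbered 404 and 1142 in C57BL/6, 448 and 638 in CAST/Ei and 208 and 415 in both, and genes higher in CAST/Ei and C57BL/6 Th-high cells 737 and 354. With the mean of CPM over cells, 6 peptidergic genes were lower in both strains. With a Th threshold of 100 CPM the CAST/Ei share was 25.3%, 836 genes were lower in CAST/Ei and 510 in both, 7 peptidergic genes were lower in both, and the strain ratio of Moxd1 in Th-high cells reversed to 0.35 and that of Plin2 was -0.08. That threshold also put 55.9% of CAST/Ei calls higher in Th-high cells, against 36.1%. Without Th-high cells with Mrgprd or Tac1 at 300 CPM the C57BL/6 share was 11.4%. The causes were not tested. Of 1404 values of named genes under 13 alternatives, 1164 stayed within 0.5 on the log2 scale. Leaving out other naive cells with at least 3 of the 4 markers, chosen after seeing the data, gave 364 genes higher and 1045 lower in both strains. No paired analysis was possible because each group is 1 sample and the labels' numbers only name cells. The 27 and 31 cells, with no animals or preparations named, limit the precision.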

Other observations

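Low Th did not mean low markers in every cell. The other naive cells with at least 2 of Slc17a8, Fam19a4, P2ry1 and Zfp521 at 20 CPM numbered 14 in C57BL/6 and 22 in CAST/Ei, of 248 in both, and 5 and 9 had at least 3. The CAST/Ei cell with 271 CPM of Th had all 4, together with 14192 CPM of Calca.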
